A study of Mus musculus with 8 samples.

Results

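Expression of 10 genes of nicotinamide adenine dinucleotide (NAD) synthesis and of the kynurenine pathway was read in mouse liver, and each of the 10 had a row of its own among the 30266 genes of the deposited table. They were picked by gene name for their place in the pathway: Tdo2, Afmid, Kmo, Haao, Qprt and Aspdh of the de novo route, Nmrk1 and Nampt of the salvage routes, and Naprt and Nadsyn1 of the Preiss-Handler route. The list was chosen with earlier results of these data known. The livers came from male mice of 8 weeks labelled Mdr2-/-, which had been given recombinant FGF21 (rFGF21, 1.0 mg/kg; 4 libraries) or PBS as vehicle (4 libraries), 4 h before the tissue was taken. FGF21 is a hormone of the fibroblast growth factor family that acts on metabolism, and Mdr2 (now Abcb4) encodes the phospholipid pump of the bile canaliculus, whose loss causes cholestatic liver injury. Both groups carry the deletion, so every comparison is of treated with untreated cholestatic liver, and no wild-type liver was compared here.

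NAD carries electrons in most oxidation steps of the cell and is also consumed by sirtuins and PARP enzymes, so it has to be made continuously. Liver is the main organ of de novo synthesis: tryptophan is opened by tryptophan dioxygenase (TDO2), and the product passes through formamidase (AFMID), kynurenine 3-monooxygenase (KMO), kynureninase (KYNU) and 3-hydroxyanthranilate dioxygenase (HAAO) to quinolinate, which QPRT turns into nicotinate mononucleotide. Salvage starts from nicotinamide through NAMPT or from nicotinamide riboside through the kinase NMRK1, and the Preiss-Handler route starts from nicotinate through NAPRT; NADSYN1 performs the last amidation of both the Preiss-Handler and the de novo route. The mouse gene Aspdh carries the name of aspartate dehydrogenase, an enzyme known from bacteria, where it supplies the precursor of quinolinate; it is listed with the de novo route for that reason only.

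The libraries held between 62756328 and 73313449 reads, and the 10 genes had between 1594 and 91715 reads in any library, so that counting error was at most 2.51% of a value. The spread between libraries was wider, with a median coefficient of variation of 9.06% in rFGF21 and 11.8% in PBS libraries. Each library carries the number of its column, which is not the number used in the labels. Abcb4 was read at 372 to 441 CPM (read counts scaled by library total and TMM factor) in rFGF21 and 337 to 424 CPM in PBS libraries; the sources used here do not name the deleted part of the gene, so these values do not check the genotype. The protocol text names retina, while the tissue label is liver: albumin (Alb) stood at 45620 to 58030 CPM in rFGF21 and 42570 to 63440 CPM in PBS libraries, and no read of Crx or Rcvrn, 2 genes of photoreceptors, was found in any of the 8 libraries.

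Stretches before the start of 3 genes are shown because the 2 of them that fell, Nmrk1 and Aspdh, differ in CG content, and Nmrk1 is close in it to Nadsyn1, which did not pass the test. They are the bases before the start of the gene in RefSeq (GRCm38.p6) that lie outside every exon of GENCODE M21, read 5′ to 3′ on the strand of the gene, with CG dinucleotides in capitals. The stretch of Nmrk1 is chr19:18631824-18631949 (plus strand), that of Aspdh chr7:44465185-44465390 (plus strand) and that of Nadsyn1 chr7:143822853-143823102 (minus strand).
Nmrk1: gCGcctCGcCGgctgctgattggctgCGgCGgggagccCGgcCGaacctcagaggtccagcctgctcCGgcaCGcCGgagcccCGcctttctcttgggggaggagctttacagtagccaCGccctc
Aspdh: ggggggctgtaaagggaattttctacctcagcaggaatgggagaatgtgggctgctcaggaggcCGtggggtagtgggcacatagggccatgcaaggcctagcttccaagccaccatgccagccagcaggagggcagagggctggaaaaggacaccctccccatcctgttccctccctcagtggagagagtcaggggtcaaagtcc
Nadsyn1: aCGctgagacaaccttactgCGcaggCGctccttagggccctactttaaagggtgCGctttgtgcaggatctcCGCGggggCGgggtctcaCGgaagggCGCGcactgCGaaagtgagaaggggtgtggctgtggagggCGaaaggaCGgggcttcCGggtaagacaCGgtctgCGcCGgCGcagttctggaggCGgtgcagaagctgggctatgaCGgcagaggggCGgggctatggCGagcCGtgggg

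In the 250 bases before the start, exon bases included, Nmrk1 had 21, Nadsyn1 23 and Aspdh 1 CG dinucleotides. The printed stretch of Nmrk1, of 126 bases, holds 12 of its 21. Afmid, which also fell, had 15 in its 250 bases, and Nampt, which did not pass, had 27. At least 21 were held by 16.3% of 32851 promoter windows, at least 23 by 13.3% and at least 1 by 92.1%, and the median window held 6. Windows of 300 bases (250 before and 50 after the start) were matched for 9 of the 10 genes, all but Naprt. On either strand, none of the 9 held the E-box CACGTG, which 7.15% of all windows hold.

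Per length, the entry enzyme of the de novo route was the most abundant of the 10 transcripts. Levels per length are FPKM computed from the counts, the library totals and the exon lengths of GENCODE M21. The TMM factor used for CPM is not applied to them. Tdo2 averaged 282 ± 27.4 FPKM in rFGF21 and 288 ± 31.5 FPKM in PBS libraries (SD, n = 4 each), and made up 47.8% to 53.1% of the summed FPKM of the 10 genes in rFGF21 and 45.3% to 50.3% in PBS libraries. Qprt came next with 74.3 ± 5.27 FPKM in rFGF21 and 80.5 ± 9.08 FPKM in PBS libraries, above every library of Kmo. This order depends on the lengths used, which were 2645 bases for Qprt, 4724 for Kmo and 4681 for Haao. Without division by length, the 3 genes were close, with PBS means of 219, 232 and 222 CPM. Kmo, Haao, Aspdh, Naprt, Nampt and Afmid followed in this order of PBS means, and in PBS libraries each overlapped the next. In rFGF21 libraries Kmo lay above Haao and Naprt above Nampt without overlap. Nmrk1 and Nadsyn1 were the lowest. Nmrk1 stood at 8.68 ± 0.278 FPKM in rFGF21 and 13.2 ± 1.33 FPKM in PBS libraries, and Nadsyn1 at 8.10 ± 0.254 FPKM in rFGF21 and 8.06 ± 0.519 FPKM in PBS libraries. Their ranges overlapped in rFGF21 libraries and not in PBS libraries.

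**Figure D1:**
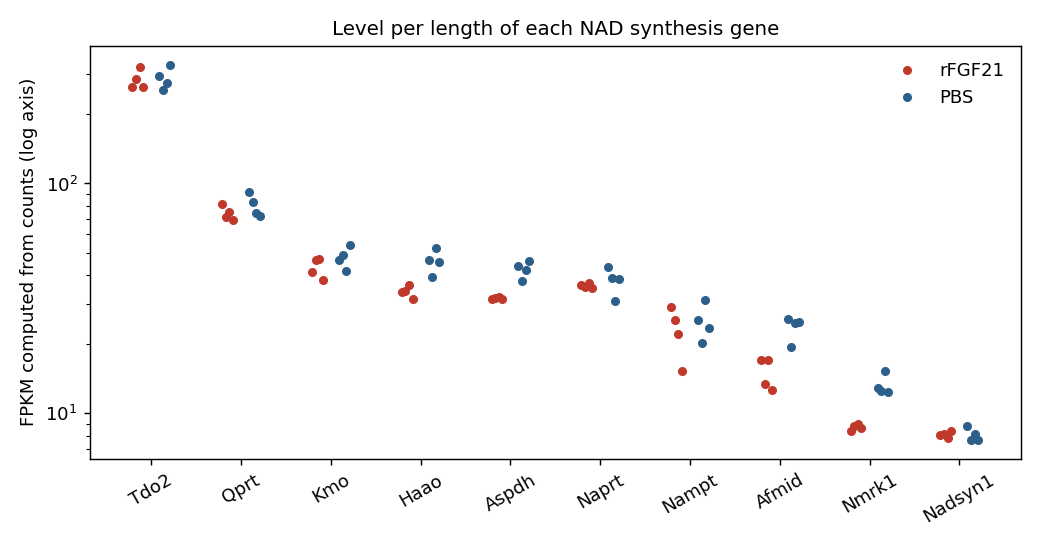
FPKM of the 10 genes (log axis), computed from counts, in each of 4 rFGF21 (red) and 4 PBS (blue) libraries, 1 point per library, ordered by the PBS mean. Tdo2 lies at 255 FPKM or more in every library, and the groups do not overlap for Nmrk1, Afmid, Aspdh and Haao.

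Read counts were lower after rFGF21 for 2 genes listed with the de novo route and 1 of the salvage routes. Of the 10 genes, 3 fell and none rose (Nmrk1, Aspdh and Afmid; quasi-likelihood test of edgeR, p adjusted over all 18315 genes tested by Benjamini-Hochberg and under 0.05), where 1.67% of all genes tested fell and 2.82% changed in either direction. By route, 2 of 6 de novo genes fell (1 of 5 without Aspdh), as did 1 of 2 salvage genes and 0 of 2 Preiss-Handler genes; the last count was also 0 with DESeq2 and limma-voom, and 0 at an unadjusted p under 0.05. The fitted log2 fold change was below 0 for all 10, with a median of -0.21 against 0.003 over all genes tested. A median of -0.21 was also that of 7 hepatocyte markers, of which 5 were below 0 and 2 above it. The medians were -0.36 for the de novo, -0.45 for the salvage and -0.12 for the Preiss-Handler genes, and the difference between routes was not tested. The sign of the smallest differences depended on the scale: Nadsyn1 was 0.01 higher on log2(FPKM + 1), and Tdo2 (0.06), Naprt (0.02) and Nadsyn1 (0.09) were higher on log2(TPM + 1). Over all genes 210 rose and 306 fell, and this split depended on the scale, as limma gave 40 and 44 on log2(FPKM + 1), 238 and 162 on genes with a mean FPKM of at least 1, 51 and 49 on log2(FPKM + 0.1) and 50 and 32 on log2(TPM + 1). In whole liver, fewer cells of a type and less RNA per cell cannot be told apart.

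**Figure D2:**
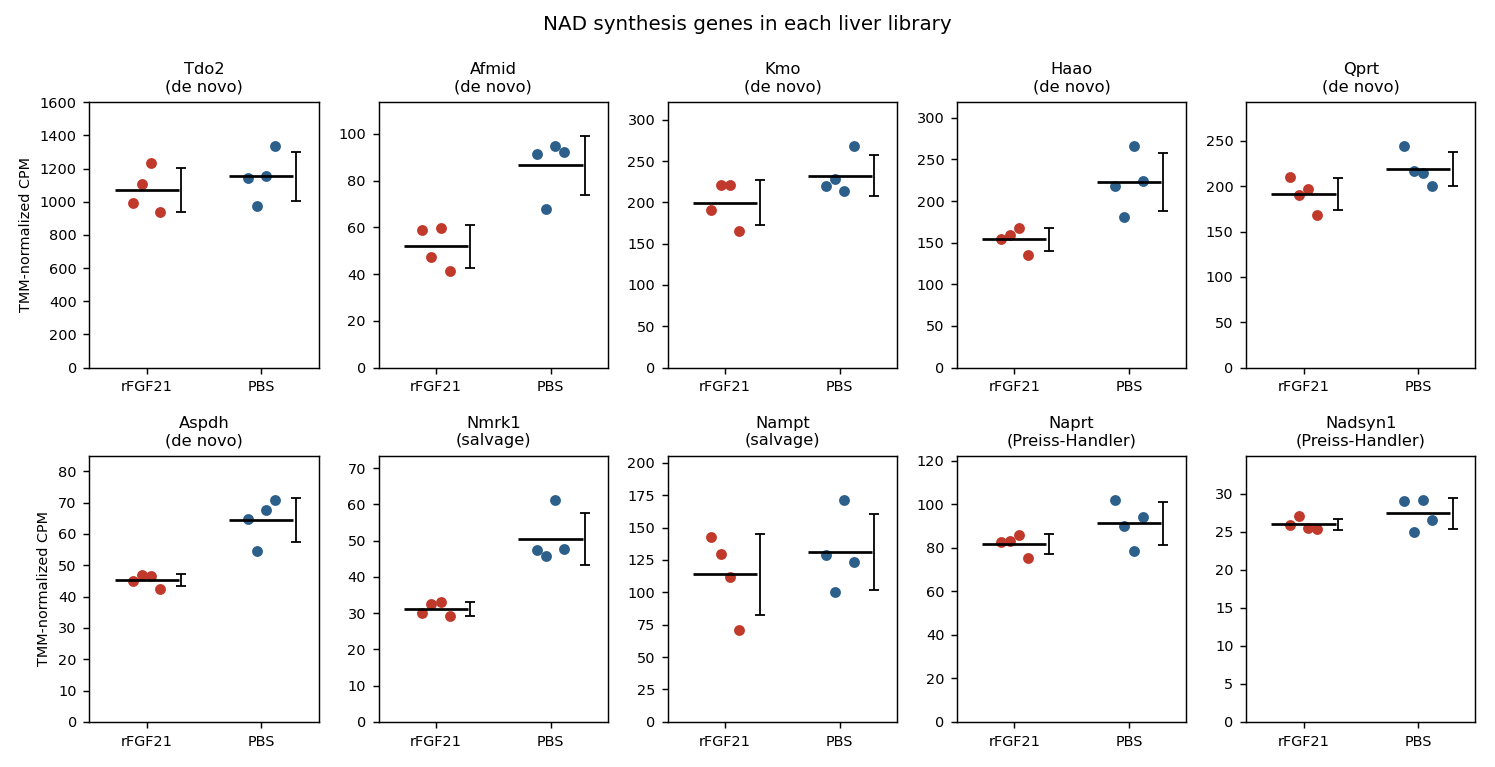
TMM-normalized CPM of the 10 genes in each rFGF21 (left) and PBS (right) library, with the mean (line) and SD (bar) of 4 libraries. The groups do not overlap for Afmid, Haao, Aspdh and Nmrk1, and do for the other 6 genes.

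Nmrk1, the nicotinamide riboside kinase of the salvage route (ENSMUSG00000037847, GRCm38 chromosome 19, 18631950 to 18652194), had the smallest p of the 10, at rank 87 among all genes tested. It was read at 30.03, 32.5, 33.0 and 29.2 CPM in rFGF21 libraries 1, 2, 3 and 5, against 47.4, 45.7, 61.1 and 47.7 CPM in PBS libraries 1, 2, 4 and 5. All rFGF21 libraries lay within a narrow band below the lowest PBS library, and PBS library 4 stood above the other PBS libraries. The mean was 31.2 ± 1.86 CPM in rFGF21 and 50.5 ± 7.13 CPM in PBS libraries, a log2 fold change of -0.70 ± 0.11 (SE) or 38.3% lower (edgeR adjusted p = 0.0103). The call held whichever library was left out (edgeR adjusted p 0.0105 to 0.0462) and in 17 of 18 alternatives in all. Ostf1, which starts on the other strand 127 bases away from Nmrk1, was read at 49.7 to 56.9 CPM in rFGF21 and 45.8 to 60.4 CPM in PBS libraries and did not pass (-0.05 ± 0.10, edgeR adjusted p = 0.824).

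Nampt, the rate-limiting enzyme of nicotinamide salvage, varied most between libraries of the same group. It was read at 143, 129, 112 and 71.0 CPM in rFGF21 libraries 1, 2, 3 and 5, against 129, 101, 171 and 124 CPM in PBS libraries 1, 2, 4 and 5. The groups overlapped, with the lowest value in rFGF21 library 5 and the highest in PBS library 4. The log2 fold change was -0.20 with a 95% interval of -0.67 to 0.27 (edgeR adjusted p = 0.662), so neither a decrease nor a small increase could be told from 0 at this spread. The difference shrank to -0.03 when rFGF21 library 5 was left out, and to -0.05 when PBS library 4 was left out. Nampt is also transcribed in neutrophils; the summed markers of that cell type were 13.8 to 27.6 CPM in rFGF21 and 11.6 to 19.1 CPM in PBS libraries, and Ly6g was at 0 in 7 of 8 libraries. All 6 neutrophil markers tested had a log2 fold change above 0 (median 0.96), none passing with edgeR, DESeq2 or limma-voom (2 at an unadjusted p under 0.05 with edgeR), and Cxcr2 was higher in rFGF21 libraries without overlap. Their part in the Nampt values was not tested.

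Of the de novo genes, Afmid and Aspdh passed the test, and Tdo2, Kmo, Haao and Qprt did not. Tdo2, the entry step, was read at 994, 1106, 1236 and 935 CPM in rFGF21 libraries 1, 2, 3 and 5, against 1141, 977, 1157 and 1335 CPM in PBS libraries 1, 2, 4 and 5. The groups overlapped, and the log2 fold change was -0.11 with a 95% interval of -0.39 to 0.17 (edgeR adjusted p = 0.699).

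Afmid, which hydrolyses N-formylkynurenine to kynurenine (ENSMUSG00000017718, chromosome 11, 117825924 to 117839908), had a decrease close to that of Nmrk1. Its values were 58.8, 47.5, 59.9 and 41.1 CPM in rFGF21 libraries 1, 2, 3 and 5, against 91.2, 67.9, 94.7 and 92.3 CPM in PBS libraries 1, 2, 4 and 5. Every rFGF21 library lay below PBS library 2, which itself stood below the other PBS libraries. The mean was 51.8 ± 9.05 CPM in rFGF21 and 86.5 ± 12.5 CPM in PBS libraries, a log2 fold change of -0.74 ± 0.14 or 40.1% lower (edgeR adjusted p = 0.0271). Leaving out rFGF21 library 1, 2 or 5 or PBS library 1 or 5 ended the call (edgeR adjusted p 0.0581 to 0.0748), with log2 fold changes between -0.84 and -0.64 when any library was left out.

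Reads of Afmid could not be told from those of neighbours without knowing how shared reads were counted. GENCODE M21 lists Gm20708 on the same strand from 117809668 to 117839904, a model that begins where Syngr2 begins and covers Afmid, and Tk1, thymidine kinase, on the opposite strand with its start 168 bases inside Afmid. Gm20708 fell by 1.27 on the log2 scale (edgeR adjusted p = 0.0122), with 11.5 to 17.6 CPM in rFGF21 and 24.7 to 48.2 CPM in PBS libraries. Afmid and Gm20708 together gave 53.8 to 76.4 CPM in rFGF21 and 92.5 to 143 CPM in PBS libraries, also without overlap. Tk1 was 0.58 ± 0.16 lower without passing (edgeR adjusted p = 0.0794), and Syngr2 differed by 0.01 (edgeR adjusted p = 0.968).

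Kmo, the flavin enzyme that makes 3-hydroxykynurenine, was read at 190, 221, 221 and 165 CPM in rFGF21 libraries 1, 2, 3 and 5, against 220, 228, 214 and 268 CPM in PBS libraries 1, 2, 4 and 5. Its groups overlapped, with a log2 fold change of -0.22 and a 95% interval of -0.49 to 0.05 (edgeR adjusted p = 0.362).

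Haao, which makes the quinolinate precursor, lay just on the other side of the threshold. It was read at 155, 159, 167 and 135 CPM in rFGF21 libraries 1, 2, 3 and 5, against 218, 181, 266 and 224 CPM in PBS libraries 1, 2, 4 and 5. The groups did not overlap, and the mean was 154 ± 13.7 CPM in rFGF21 and 222 ± 34.7 CPM in PBS libraries. The log2 fold change was -0.53 ± 0.12 (edgeR adjusted p = 0.0510), and the gene was called without PBS library 2 (edgeR adjusted p = 0.0349) and in 5 of 18 alternatives, whose adjusted p ranged from 0.00198 to 0.222.

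Qprt, which commits quinolinate to NAD, was read at 210, 190, 197 and 168 CPM in rFGF21 libraries 1, 2, 3 and 5, against 244, 217, 214 and 200 CPM in PBS libraries 1, 2, 4 and 5. The groups overlapped, and the log2 fold change was -0.19 with a 95% interval of -0.42 to 0.03 (edgeR adjusted p = 0.342).

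Aspdh (ENSMUSG00000038704, chromosome 7, 44465391 to 44467758) fell with little spread among treated livers. Its values were 45.0, 46.8, 46.6 and 42.5 CPM in rFGF21 libraries 1, 2, 3 and 5, against 64.6, 54.4, 67.5 and 70.7 CPM in PBS libraries 1, 2, 4 and 5. No rFGF21 library reached the lowest PBS library, and the log2 fold change was -0.51 ± 0.09 or 29.7% lower (edgeR adjusted p = 0.0226). Leaving out any 1 of the rFGF21 libraries, or PBS library 1 or 5, ended the call (edgeR adjusted p 0.0523 to 0.0799), with log2 fold changes of -0.58 to -0.45 over all 8 omissions.

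**Figure D3:**
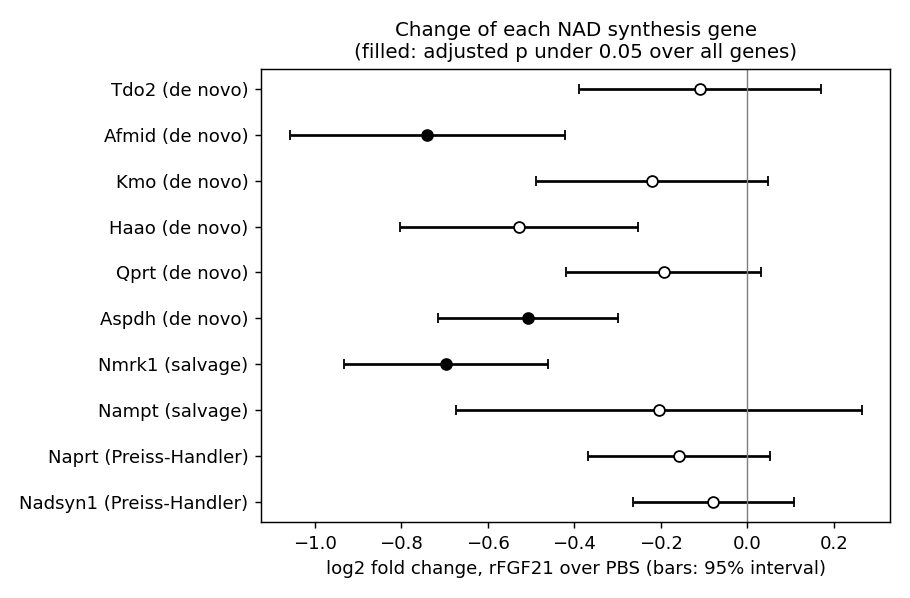
Log2 fold change (rFGF21 over PBS) of the 10 genes with its 95% interval from edgeR, grouped by route, filled where the adjusted p over all genes was under 0.05. Afmid, Nmrk1 and Aspdh are filled, Haao lies at -0.53 unfilled, and the intervals of Tdo2, Kmo, Qprt, Nampt, Naprt and Nadsyn1 hold 0.

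Neither gene of the Preiss-Handler route passed. Naprt, which joins nicotinate to phosphoribose, was read at 82.5, 83.2, 85.7 and 75.2 CPM in rFGF21 libraries 1, 2, 3 and 5, against 102, 90.0, 78.4 and 94.3 CPM in PBS libraries 1, 2, 4 and 5. Nadsyn1, the glutamine-dependent NAD synthetase, was read at 25.9, 27.1, 25.6 and 25.4 CPM in rFGF21 libraries 1, 2, 3 and 5, against 29.1, 25.1, 29.2 and 26.5 CPM in PBS libraries 1, 2, 4 and 5. The groups overlapped for both genes. Their 95% intervals ran from -0.37 to 0.05 for Naprt (edgeR adjusted p = 0.405) and from -0.26 to 0.11 for Nadsyn1 (edgeR adjusted p = 0.674), so a decrease of the size seen for Nmrk1 lay outside both. Eef1d overlaps Naprt on the same strand and Fh1 overlaps Kmo on the opposite strand in GENCODE M21, so the counts of Naprt and Kmo are uncertain to that extent. The same holds for Nampt, which contains the noncoding gene Gdap10 on the same strand. No row of the deposited table was matched to Gdap10.

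Over all 10 genes, 4 had groups that did not overlap, all lower in rFGF21 libraries, where 6.39% of all genes tested were lower and 5.9% higher without overlap. These were Nmrk1, Aspdh, Afmid and Haao. The summed de novo genes stood at 480 ± 34.7 FPKM in rFGF21 and 528 ± 39.6 FPKM in PBS libraries. The salvage genes summed to 31.7 ± 5.73 FPKM in rFGF21 and 38.3 ± 5.82 FPKM in PBS libraries, and the Preiss-Handler genes to 43.9 ± 0.551 FPKM in rFGF21 and 45.9 ± 5.43 FPKM in PBS libraries. Tdo2 set most of the de novo sum: without it the sum was 183 to 207 FPKM in rFGF21 libraries, below the 228 to 255 FPKM of PBS libraries.

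**Figure D4:**
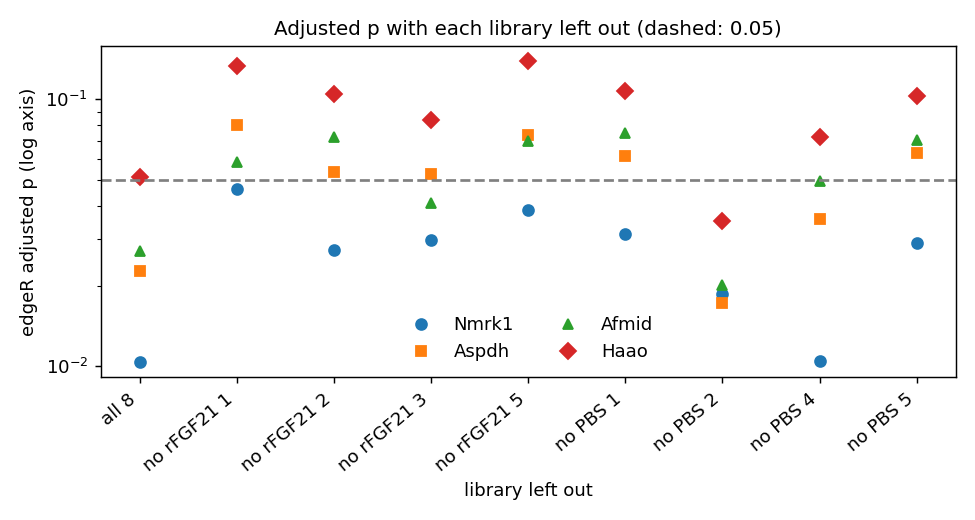
Adjusted p (log axis) of Nmrk1, Aspdh, Afmid and Haao from edgeR with all 8 libraries and with each library left out; the dashed line marks 0.05. Nmrk1 stays below the line throughout (at most 0.0462), while Aspdh and Afmid cross it in 6 and 5 of 8 fits and Haao lies below it only without PBS library 2.

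Aadat and Kyat1, both kynurenine aminotransferase genes, changed in opposite directions. Aadat, an aminotransferase that can turn kynurenine into kynurenate, fell by 0.68 ± 0.11 on the log2 scale (edgeR adjusted p = 0.0117), with 53.4, 49.0, 49.4 and 42.4 CPM in rFGF21 libraries 1, 2, 3 and 5, against 76.7, 65.6, 86.5 and 82.8 CPM in PBS libraries 1, 2, 4 and 5. Kyat1 rose by 0.50 ± 0.11 (edgeR adjusted p = 0.0362), with 73.6, 75.2, 69.1 and 60.8 CPM in rFGF21 libraries 1, 2, 3 and 5, against 46.0, 43.1, 51.6 and 56.0 CPM in PBS libraries 1, 2, 4 and 5. Neither gene's groups overlapped. Per length, Aadat stood at 22.9 ± 1.63 FPKM in rFGF21 and 34.6 ± 2.80 FPKM in PBS libraries, and Kyat1 at 24.5 ± 1.495 FPKM in rFGF21 and 16.3 ± 1.45 FPKM in PBS libraries. The call of Aadat held whichever library was left out (0.0151 to 0.0406), and that of Kyat1 was lost without rFGF21 library 1, 2 or 3 or PBS library 1 or 2 (0.0787 to 0.110).

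Of the 7 other de novo and side-branch genes, 6 could be tested, of which 1 rose (1.15% of all genes tested rose) and 1 fell (1.67% fell). Of the 6, 5 had an unadjusted p under 0.05; limma-voom also called 1 higher and 1 lower, and DESeq2 called 1 higher and 3 lower, adding Kynu and Ido2. Kynu, the kynureninase between KMO and HAAO, was read at 89.2 to 101 CPM in rFGF21 and 106 to 144 CPM in PBS libraries without passing (-0.40 ± 0.11, edgeR adjusted p = 0.0876; DESeq2 0.0189). Ido2, a second tryptophan dioxygenase gene of liver, was read at 27.2 to 50.5 CPM in rFGF21 and 51.1 to 81.8 CPM in PBS libraries (-0.66 ± 0.19, edgeR adjusted p = 0.0996; DESeq2 0.0150). Over 18 alternatives the adjusted p ran from 0.0189 to 0.273 for Kynu and from 0.0150 to 0.251 for Ido2. Kyat3 was 0.36 ± 0.15 lower (edgeR adjusted p = 0.242), and Acmsd, which diverts the pathway away from quinolinate, spread from 14.0 to 56.2 CPM in rFGF21 and 15.9 to 36.7 CPM in PBS libraries (edgeR adjusted p = 0.687). Ido1, the dioxygenase of immune cells, was under the filter on low counts.

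NMNAT enzymes, which turn mononucleotides into dinucleotides in every route, were the next group. With Pnp, 3 such genes were tested and 1 fell (1.67% of all genes tested fell). Nmnat3 (mitochondrial) fell by 0.62 ± 0.14 (edgeR adjusted p = 0.0465), with 4.50, 4.66, 5.72 and 4.12 CPM in rFGF21 libraries 1, 2, 3 and 5, against 7.34, 7.19, 7.39 and 7.32 CPM in PBS libraries 1, 2, 4 and 5. The PBS libraries were nearly equal and all above the treated ones. Omitting any 1 library other than rFGF21 library 3 ended the call (0.0709 to 0.132). Nmnat1 (nuclear) was 0.41 ± 0.14 lower without passing (edgeR adjusted p = 0.145), Pnp, which splits nicotinamide riboside, was 0.22 ± 0.10 higher without passing (0.252), and Nmnat2 was under the filter.

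Genes that use, clear or transport NAD gave few calls. None of 13 NAD consumers passed (1 at an unadjusted p under 0.05; 0 with DESeq2 and limma-voom), with a median of 0.00 against 0.003 over all genes; their smallest p values were those of Bst1 (0.65 ± 0.29), Parp2 (-0.21 ± 0.10), Sirt4 (-0.22 ± 0.13) and Sirt3 (-0.22 ± 0.13). Of 5 genes of NAD kinases and transport none passed (3 at an unadjusted p under 0.05; 0 with DESeq2 and limma-voom). Among these, Nnt, the proton-driven transhydrogenase, was 0.25 ± 0.09 lower, Slc25a51, the mitochondrial NAD carrier, 0.73 ± 0.29 lower, Nadk2 0.24 ± 0.10 lower and Nadk 0.17 ± 0.09 lower. Of 3 genes of nicotinamide clearance none passed (2 at an unadjusted p under 0.05), while DESeq2 and limma-voom each called 1 lower. Aox3, which oxidizes methylnicotinamide, was read at 310 to 380 CPM in rFGF21 and 421 to 488 CPM in PBS libraries (edgeR adjusted p = 0.0623), Aox1 was 0.31 ± 0.11 lower (0.177), and the methyltransferase Nnmt was 0.33 ± 0.52 lower (0.785).

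Of 5 tested genes of tryptophan uptake and other fates, 1 fell, where 1.67% of all genes tested fell. Ddc, the aromatic amino acid decarboxylase, fell by 1.04 ± 0.19 (edgeR adjusted p = 0.0205), with 16.3, 21.1, 12.05 and 12.3 CPM in rFGF21 libraries 1, 2, 3 and 5, against 27.1, 39.0, 33.0 and 27.9 CPM in PBS libraries 1, 2, 4 and 5. The groups did not overlap, and the call was lost without rFGF21 library 1, 3 or 5 (0.0522 to 0.0649). The transporters Slc7a5 (0.49 ± 0.27), Slc7a8 (-0.18 ± 0.13), Slc3a2 (0.05 ± 0.10) and Slc16a10 (-0.05 ± 0.13) did not pass.

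**Figure D5:**
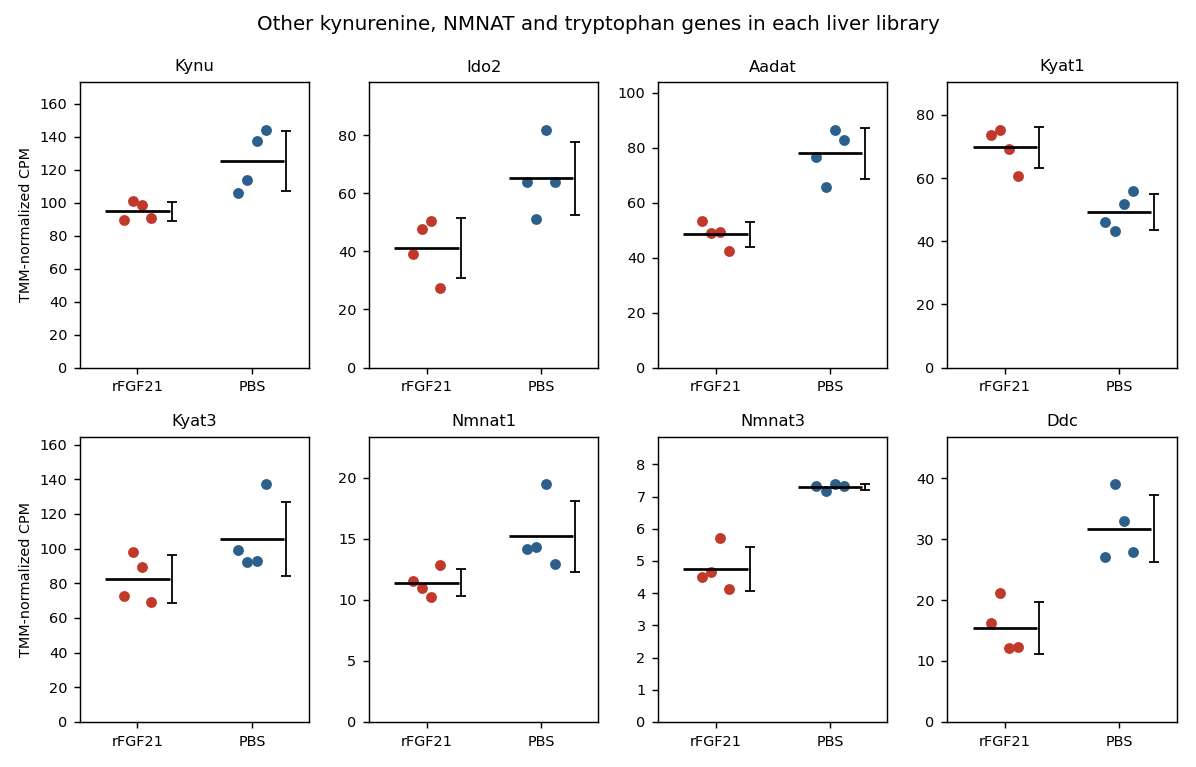
TMM-normalized CPM of 8 other genes of the kynurenine pathway, NAD assembly and tryptophan use in each rFGF21 (left) and PBS (right) library, with the mean (line) and SD (bar) of 4 libraries. Kyat1 is the gene of the 8 that is higher in rFGF21 libraries; Aadat, Nmnat3 and Ddc passed the test as lower.

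Markers of cell types, other than those of neutrophils given with Nampt, were summed for the same libraries. None of 7 hepatocyte markers passed (1 at an unadjusted p under 0.05; DESeq2 called 1 lower), and their sum was 57790 to 71050 CPM in rFGF21 and 59730 to 79590 CPM in PBS libraries. Alb made up most of the hepatocyte sum (45620 to 58030 CPM in rFGF21 and 42570 to 63440 CPM in PBS libraries). Of the 7 hepatocyte markers, 5 had a log2 fold change below 0 and 2 above it (median -0.21). All 6 cholangiocyte markers had a log2 fold change above 0, none passing (5 at an unadjusted p under 0.05; DESeq2 called 2 higher), with sums of 237 to 368 CPM in rFGF21 and 171 to 265 CPM in PBS libraries. Spp1 made up most of these sums (184 to 276 CPM in rFGF21 and 133 to 214 CPM in PBS libraries). The 7 Kupffer cell and macrophage markers summed to 337 to 698 CPM in rFGF21 and 525 to 852 CPM in PBS libraries, lowest in rFGF21 libraries 1 and 5. None passed (1 at an unadjusted p under 0.05 with edgeR), and DESeq2 called 0. Of these markers, 5 had a log2 fold change below 0 and 2 above it (median -0.53). With DESeq2 and with limma-voom, 3 had an unadjusted p under 0.05. Lymphocyte markers summed to 5.67 to 8.55 CPM in rFGF21 and 5.61 to 6.57 CPM in PBS libraries, endothelial markers to 79.5 to 150 CPM in rFGF21 and 85.1 to 175 CPM in PBS libraries, and stellate cell markers to 327 to 426 CPM in rFGF21 and 331 to 412 CPM in PBS libraries. The part of cell makeup in the decreases of Nmrk1, Aspdh and Afmid was not tested.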

How the data were processed

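Whole-liver RNA of 4 rFGF21 and 4 PBS samples was analysed. The members, gene lists and tests were chosen with earlier results of these data known. The deposited table gives the authors' read counts per gene, per the file headers. Bowtie 0.12.2 and mm8 are named in the submitters' processing notes, but 7 of the 10 genes have the same coordinates in GENCODE M21, so the table's coordinates are given as GRCm38. The sources used here name neither the counter nor its strand setting. Of the columns of values, 10 were not used: 2 of counts without FPKM, and 8 of the authors' FPKM, whose names give a group and not a sample. The design had named those FPKM for levels per length; FPKM was computed from the counts and GENCODE M21 exon lengths instead (30177 of 30266 genes), and TPM from it. The labels do not state that samples were separate animals, so p-values may measure technical spread. Counts were filtered with filterByExpr, scaled by TMM and tested with edgeR 4.0.16 in R 4.3.3 (quasi-likelihood F test, two-sided, no covariates; Benjamini-Hochberg over 18315 genes); SE follow from the F statistic. The fits were tested on simulated counts. Alternatives were median-of-ratios scaling, other filters, DESeq2 1.42.0, limma 3.58.1, leaving out each library and a block by column number. Named were all 10 genes and, from each wider list, genes that passed and otherwise up to 4 with the smallest p. Nmrk2 and Tph1 were not analysed here. Promoter sequences are from RefSeq (GRCm38.p6).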

Additional observations from a re-analysis of the deposited data

Results flagged for a closer look

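In 28 groups of 4 libraries (14 genes, both groups), 2 held a library whose gap to the nearest other passed Dixon's 95% critical value for its share of the range; chance flags about 1 in 20 groups. Nmrk1 was read at 61.1 CPM in PBS library 4, with the other PBS libraries between 45.7 and 47.7 CPM (gap of 0.869 of the range). Without that library the decrease was smaller, at -0.59, and the call was kept (edgeR adjusted p = 0.0105, over 18 alternatives 1.76e-06 to 0.0897). Afmid was read at 67.9 CPM in PBS library 2, with the others between 91.2 and 94.7 CPM (gap of 0.867). Without that library its log2 fold change was -0.84 (edgeR adjusted p = 0.0201, over 18 alternatives 0.000153 to 0.130).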

How the results depend on the processing

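Of 180 values (10 genes under 18 alternatives), 148 kept direction and side of the threshold, 21 lost the call, 5 gained it and 6 changed sign. Planned fits on the authors' FPKM are not reported, as their columns could not be tied to single samples; fits on FPKM computed from the counts were chosen in their place after seeing the data. The sign changes were those of Nadsyn1 on log2(FPKM + 1) (log2 fold change 0.00702, also among genes with a mean FPKM of at least 1), log2(FPKM + 0.1) (0.00795) and log2(TPM + 1) (0.0918), and of Tdo2 (0.0628) and Naprt (0.0185) on log2(TPM + 1); the cause was not tested. FPKM and TPM were made without the TMM factors, which were 0.996 to 1.09 in rFGF21 and 0.919 to 1.01 in PBS libraries. Of the 10 genes 3 were called with all libraries. Leaving out a library gave 1 to 4, and limma gave 1 each on log2(FPKM + 1), log2(FPKM + 0.1) and log2(TPM + 1). Over all genes 516 were called. Leaving out a library gave 131 to 486, no filter on low counts 198 with more genes tested, DESeq2 1527, and limma 84 on log2(FPKM + 1), 100 on log2(FPKM + 0.1) and 82 on log2(TPM + 1). With a replicate block from the column numbers, edgeR called 12 genes (7 higher, 5 lower) and 0 of the 10 (5 at an unadjusted p under 0.05). Numbers 1, 2 and 5 occur in both groups. As rFGF21 library 3 and PBS library 4 stand alone in their blocks, that fit compares only the libraries numbered 1, 2 and 5. Libraries of the same number deviated from their group means with correlations of 0.117, -0.115 and -0.181, and not every library correlated best with its own number, so they were not treated as pairs. Nmrk1 kept its call in 17 of 18 alternatives (log2 fold change -0.74 to -0.50), Aspdh and Afmid in 8 each, and Haao gained it in 5. Counting error was at most 2.51% for the 10 genes, and the spread between libraries exceeded each gene's own counting error in both groups.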

Other observations

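Clock genes and glucocorticoid-responsive genes were read in the same fit, since Nampt is known as a clock output and Tdo2 and Tat as glucocorticoid-induced genes. Of 15 clock genes none passed (6 at an unadjusted p under 0.05; limma-voom called 0 and DESeq2 3 lower), with a median log2 fold change of -0.18 against 0.003 over all genes. Per1 was read at 27.9 to 64.9 CPM in rFGF21 and 66.9 to 108 CPM in PBS libraries (-0.99 ± 0.25, edgeR adjusted p = 0.0614). It also belongs to the list of glucocorticoid-responsive genes given next and is counted in both lists. Ciart was read at 5.02 to 14.4 CPM in rFGF21 and 9.78 to 35.4 CPM in PBS libraries (-1.32 ± 0.42, edgeR adjusted p = 0.126), and Nfil3 (-0.67 ± 0.18) and Hlf (-0.50 ± 0.15) did not pass. Arntl, named after its values were seen for its opposite sign, was read at 2.86 to 5.29 CPM in rFGF21 and 1.59 to 2.64 CPM in PBS libraries (0.75 ± 0.26, edgeR adjusted p = 0.145).

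Of 9 glucocorticoid-responsive genes, 1 fell, the phosphatase gene Dusp1, where 1.67% of all genes tested fell (4 at an unadjusted p under 0.05; limma-voom called 1 and DESeq2 2 lower). It was read at 10.4 to 20.2 CPM in rFGF21 and 23.9 to 55.7 CPM in PBS libraries (-1.41 ± 0.26, edgeR adjusted p = 0.0222). Tat, tyrosine aminotransferase, was read at 823, 1924, 762 and 512 CPM in rFGF21 libraries 1, 2, 3 and 5, against 1738, 1541, 1752 and 2995 CPM in PBS libraries 1, 2, 4 and 5. It was 1.00 ± 0.37 lower without passing (edgeR adjusted p = 0.174), with rFGF21 library 2 among the PBS values. The list did not move in 1 direction: 5 genes had a log2 fold change below 0 and 4 above it. The highest was that of Zbtb16 (0.57 ± 0.23, edgeR adjusted p = 0.213). Tdo2 in the same livers had a log2 fold change of -0.11 ± 0.13.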
